A study of Mus musculus with 16 samples.

Results

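The genes described here encode the core of the transforming growth factor β (TGFβ) pathway: the ligands *Tgfb1*, *Tgfb2* and *Tgfb3*, the receptors *Tgfbr1* and *Tgfbr2*, and the Smads *Smad2*, *Smad3*, *Smad4* and *Smad7*. They were chosen by symbol, 9 genes of the 30386 in the expression table, and 8 of them were among the 12533 genes tested. RNA came from 8 cultures of *GFP*-NSPCs and 8 of *Dbx2*-NSPCs, neural stem/progenitor cell lines from the subventricular zone (SVZ) of C57BL/6 J/Babr mice of 3 months of age, which carried either a control *GFP* transgene or a mouse *Dbx2* transgene. *Dbx2* encodes a homeobox transcription factor. Both kinds of line had been made by nucleofection of pTP6 plasmids and kept under puromycin, so that resistance was shared by both groups, and they were grown as bulk cultures without adhesion in EGF and FGF2. The promoter of the plasmid is not given in the sources used here. The study used independent pairs of such lines, but the sample labels number the cultures of each group 1 to 8 and do not say which pair a number stands for. The samples numbered 1 to 4 and 5 to 8 were therefore compared as sets of numbers, and the p-values measure the spread between cultures of these few lines, not between animals.

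In this pathway a TGFβ dimer, secreted in a latent form, binds the type II receptor, which then phosphorylates the type I receptor. The type I receptor phosphorylates Smad2 and Smad3, and these enter the nucleus with Smad4 to bind DNA, whereas Smad7 is an inhibitory Smad that is itself induced by the pathway. In the adult SVZ, TGFβ signals are known as regulators of the quiescence of neural stem cells.

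Levels are given in CPM, the reads of a gene scaled to a common total per library. Each library was made with QuantSeq, which reads the end of each transcript, and the totals ranged from 1803928 to 3258885 reads for *GFP*-NSPCs and from 2214008 to 3293285 for *Dbx2*-NSPCs. A level of 3 reads, taken here as the floor, was 0.911 to 1.66 CPM depending on the library. Fold changes are on the scale of log2(CPM + 0.5), *Dbx2*-NSPCs over *GFP*-NSPCs, and a gene was called when its limma p-value, adjusted by the Benjamini-Hochberg method over all 12533 genes, was under 0.05. Since RNA came from whole cultures, fewer cells of a kind and less RNA per cell cannot be told apart.

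The transgene was checked first. *Dbx2* (chr15:95623563-95655960, minus strand, GRCm38) was at 171, 105, 116 and 89.3 CPM in the *GFP*-NSPCs numbered 1 to 4 and at 31.6, 30.7, 34.2 and 39.5 CPM in those numbered 5 to 8. In *Dbx2*-NSPCs it was at 232, 168, 157 and 136 CPM in samples 1 to 4 and at 155, 114, 138 and 138 CPM in samples 5 to 8. It was thus higher in the *Dbx2*-NSPCs at each of the 8 numbers, without overlap in samples 5 to 8 and with overlap in samples 1 to 4. The log2 fold change was 1.26 ± 0.32 (SE, adjusted p = 0.00978) over all samples and 1.99 (adjusted p = 5.67e-08) in samples 5 to 8, but 0.54 (adjusted p = 0.0891) in samples 1 to 4. That last value was 0.0453 with DESeq2, 0.00557 with the replicate number as a block, 0.0112 without the first *GFP*-NSPC library and 0.046 without the fourth *Dbx2*-NSPC library. The difference of 1.45 between the sets passed the test (adjusted p = 0.000104 for the interaction). Whether the transcript of the plasmid ends like that of the endogenous gene is not given in the sources used here, so reads at *Dbx2* may come from either.

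Of the 8 tested TGFβ genes, *Smad3* was higher in *Dbx2*-NSPCs in both sets, by 1.73-fold over all samples, and *Tgfb2* was higher by 2.53-fold in samples 5 to 8 alone. No member was called lower in any of these comparisons. Over all samples 1 of 8 members was called (12.5%), against 15.8% of all tested genes. In samples 1 to 4 it was 1 of 8, against 15.6% of all genes. In samples 5 to 8 it was 2 of 8 (25%), against 23.2% of all genes. The fold change differed between the sets for 1 of 8 members, against 9.44% of all genes. These shares are near the background, so the counts are not a result about the family, and the members are described one by one.

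**Figure D1:**
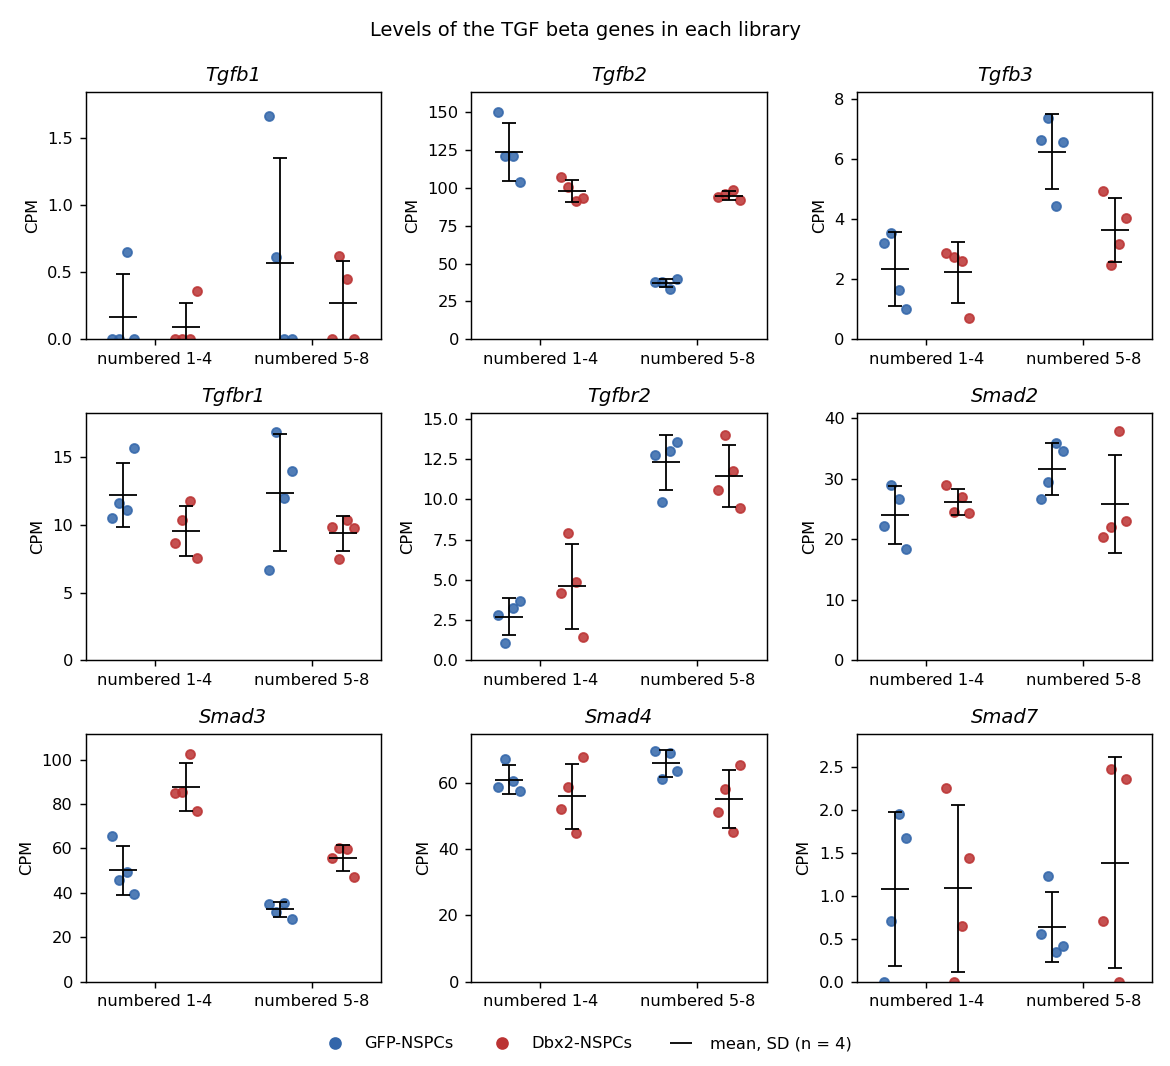
Levels of the 9 TGFβ genes in CPM (vertical axes, linear, from 0) in each library, by transgene (blue, *GFP*-NSPCs; red, *Dbx2*-NSPCs) and by set of replicate numbers, with black lines for the mean and SD of 4 libraries. *Smad3* was higher in red in both sets, whereas the 4 blue points of *Tgfb2* numbered 5 to 8, at 33.5 to 39.9 CPM, lay under every other library.

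The sequences before the start sites of *Tgfb2* and *Smad3*, the members that were called, are shown because these genes carry the results below. Each runs 5′ to 3′ on the strand of the gene (minus for both) and ends at the base before the RefSeq start, in build GRCm38.p6. They cover chr1:186705990-186706239 for *Tgfb2* and chr9:63757995-63758244 for *Smad3*. Capitals mark every match, on either strand, to a TATA box (TATAAA), an E-box (CACGTG), a Smad box (CAGAC) or the core bound by many homeodomains (TAAT).
Tgfb2: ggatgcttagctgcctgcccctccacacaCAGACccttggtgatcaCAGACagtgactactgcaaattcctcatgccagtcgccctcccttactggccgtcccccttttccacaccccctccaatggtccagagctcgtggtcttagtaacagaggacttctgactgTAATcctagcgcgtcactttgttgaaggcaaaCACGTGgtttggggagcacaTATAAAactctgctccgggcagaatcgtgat
Smad3: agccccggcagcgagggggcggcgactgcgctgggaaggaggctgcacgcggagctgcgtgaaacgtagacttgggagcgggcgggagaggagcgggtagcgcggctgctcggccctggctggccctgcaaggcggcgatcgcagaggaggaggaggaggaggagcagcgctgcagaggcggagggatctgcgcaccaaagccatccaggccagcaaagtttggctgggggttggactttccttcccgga
The *Tgfb2* sequence held a TATA box match 31 bases before the start, an E-box match at 51 bases, Smad box matches at 204 and 221 bases and a TAAT match at 83 bases, each counted to the first base of the match, and no match overlapped another. The *Smad3* sequence held 0 matches to any of these motifs, which says only that these letters are not in this window. Among all 32851 RefSeq promoters in the table, cut to the same 250 bases, 12.4% held a TATA box match, 6.02% an E-box match, 42.2% a Smad box match and 54.9% a TAAT match. G and C made up 53.6% of the *Tgfb2* sequence and 69.2% of the *Smad3* sequence, with a median of 52.4% over all promoters. A match is a description of the sequence, and no binding was measured here.

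Among the ligands, *Tgfb2* (chr1:186622792-186705989, minus strand) was the member whose response depended on the set. *GFP*-NSPCs numbered 1 to 4 held 149.9, 121, 121 and 104 CPM, and the *Dbx2*-NSPCs with those numbers held 107, 100.5, 91.5 and 93.3 CPM. The *Dbx2*-NSPCs were thus lower at each of the 4 numbers, although the groups overlapped, and the log2 fold change of -0.33 (SE 0.12) did not pass the test (adjusted p = 0.0917; exact permutation p = 0.0571, 2-sided). *GFP*-NSPCs numbered 5 to 8 held 37.7, 38.0, 33.5 and 39.9 CPM, against 93.6, 95.7, 98.4 and 91.8 CPM in *Dbx2*-NSPCs. Here the groups did not overlap, as for 24.8% of all tested genes in these samples, and the level rose from 37.3 ± 2.71 to 94.9 ± 2.83 CPM (mean ± SD, n = 4 each). This was a log2 fold change of 1.34 (95% interval 1.13 to 1.55, adjusted p = 3.65e-07), and the exact permutation p of 0.0286 is the smallest that 4 against 4 samples can give.

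The difference between the sets was itself tested. The log2 fold change of *Tgfb2* was larger by 1.66 in samples 5 to 8 than in samples 1 to 4 (95% interval 1.34 to 1.99, adjusted p = 6.82e-08 for the interaction). The order of the group means was *GFP*-NSPCs 1 to 4 at 123.9 ± 19.2, *Dbx2*-NSPCs 1 to 4 at 98.1 ± 7.21, *Dbx2*-NSPCs 5 to 8 at 94.9 ± 2.83 and *GFP*-NSPCs 5 to 8 at 37.3 ± 2.71 CPM (SD over 4 samples). The first 3 groups overlapped with their neighbours in this order, and the last stood apart. Between the sets the *GFP*-NSPC level differed by 3.33-fold, while that of *Dbx2*-NSPCs differed by 1.03-fold. Pooled over all 16 samples, the log2 fold change of 0.51 did not pass the test (SE 0.29, adjusted p = 0.253; exact permutation p = 0.113). On the opposite strand the annotation places Gm29491, whose level reached no more than 0.35 CPM in any library.

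**Figure D2:**
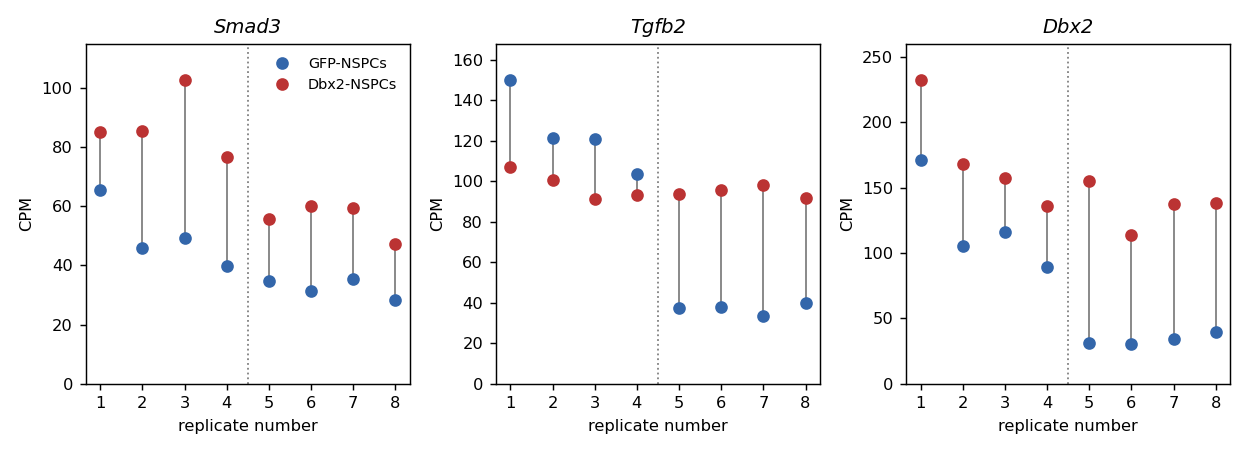
CPM (vertical axes, linear, from 0) of *Smad3*, *Tgfb2* and *Dbx2* by replicate number, with *GFP*-NSPCs in blue, *Dbx2*-NSPCs in red, a grey line joining the same number and a dotted line between the sets. The red point lay above the blue at 8 of 8 numbers for *Smad3* and *Dbx2*, and at 4 of 8 for *Tgfb2*, those being numbers 5 to 8.

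*Tgfb3* (chr12:86056745-86079041, minus strand) was detected at a few CPM. In *GFP*-NSPCs it was at 3.22, 3.53, 1.63 and 1.0 CPM in samples 1 to 4 and at 6.65, 7.36, 4.44 and 6.58 CPM in samples 5 to 8. In *Dbx2*-NSPCs it was at 2.89, 2.73, 2.61 and 0.72 CPM in samples 1 to 4 and at 4.93, 2.48, 3.16 and 4.05 CPM in samples 5 to 8. The *Dbx2*-NSPCs were lower at 7 of 8 numbers, but the groups overlapped in both sets. On the log2 scale the fold change was -0.38 (SE 0.36, adjusted p = 0.522) over all samples and -0.72 (SE 0.29, adjusted p = 0.098) in samples 5 to 8. *Ttll5* lies on the opposite strand over the same place, at a mean of 22.6 CPM. The strand used in counting is not given in the sources used here, so the reads of the pair cannot be told apart.

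*Tgfb1* (chr7:25687002-25705077, plus strand), the ligand best known from immune cells and platelets, was at 0 in 5 of 8 libraries of each group. It reached 1.66 CPM at most among *GFP*-NSPCs and 0.62 CPM among *Dbx2*-NSPCs, at or under the level of 3 reads in every library. It was therefore not tested, and a difference was not detectable at this depth.

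The receptors were not called in any comparison. *Tgfbr1* (chr4:47353222-47414931, plus strand), the type I receptor kinase, was at 10.5, 11.6, 11.1 and 15.7 CPM in the *GFP*-NSPCs numbered 1 to 4 and at 6.65, 16.9, 11.9 and 14.0 CPM in those numbered 5 to 8. In *Dbx2*-NSPCs it was at 8.67, 10.3, 11.7 and 7.53 CPM in samples 1 to 4 and at 9.86, 7.45, 10.4 and 9.79 CPM in samples 5 to 8. The values were lower in *Dbx2*-NSPCs at 6 of 8 numbers, with overlap in both sets. Over all samples the log2 fold change was -0.33 (95% interval -0.70 to 0.040, adjusted p = 0.226; exact permutation p = 0.0595), and it was -0.34 in samples 1 to 4 and -0.32 in samples 5 to 8.

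*Tgfbr2* (chr9:116084293-116175360, minus strand), the type II receptor that binds the ligand, differed more between the sets than between the transgenes. *GFP*-NSPCs held 2.82, 1.06, 3.26 and 3.67 CPM in samples 1 to 4 and 12.7, 9.82, 13.0 and 13.6 CPM in samples 5 to 8. *Dbx2*-NSPCs held 4.17, 7.89, 4.88 and 1.44 CPM in samples 1 to 4 and 10.6, 14.0, 11.7 and 9.45 CPM in samples 5 to 8. The sets did not overlap with either transgene, with means 4.54-fold higher in samples 5 to 8 for *GFP*-NSPCs and 2.49-fold higher for *Dbx2*-NSPCs. The sets also did not overlap with either transgene for *Smad3*, and the share of all tested genes for which this holds was not counted. This difference between sets of numbers is given as levels and was not tested. For the transgene, the log2 fold change was 0.24 (95% interval -0.76 to 1.24, adjusted p = 0.786), and it was 0.58 in samples 1 to 4 and -0.10 in samples 5 to 8, neither of which passed the test.

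Among the Smads, *Smad3* (chr9:63646767-63757994, minus strand), which carries the signal of the activated receptor to DNA, rose in *Dbx2*-NSPCs of both sets. In samples 1 to 4 it was at 65.7, 45.85, 49.2 and 39.7 CPM in *GFP*-NSPCs and at 85.1, 85.6, 103 and 76.8 CPM in *Dbx2*-NSPCs. In samples 5 to 8 it was at 34.9, 31.3, 35.5 and 28.4 CPM in *GFP*-NSPCs and at 55.6, 60.3, 59.6 and 47.3 CPM in *Dbx2*-NSPCs. The *Dbx2*-NSPCs were higher at each of the 8 numbers, and the groups did not overlap within either set. Of all tested genes, 19.6% did not overlap in samples 1 to 4, 24.8% in samples 5 to 8, and 3.3% were higher without overlap in both. Across the sets they did overlap, since the first *GFP*-NSPC library lay above the *Dbx2*-NSPCs numbered 5 to 8. Over all samples the level rose from 41.3 ± 12.1 to 71.6 ± 18.8 CPM (mean ± SD over 8 samples), which is 0.79 as a log2 fold change (SE 0.18, 95% interval 0.42 to 1.16, adjusted p = 0.00417). The exact permutation test over 12870 splits gave p = 0.00186, where the smallest possible value is 0.000155.

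Within samples 1 to 4 the *Smad3* level rose from 50.1 ± 11.1 to 87.5 ± 10.8 CPM, a log2 fold change of 0.82 (SE 0.16, adjusted p = 0.00426). Within samples 5 to 8 it rose from 32.5 ± 3.34 to 55.7 ± 5.97 CPM, a log2 fold change of 0.77 (SE 0.13, adjusted p = 0.000489). The exact permutation p was 0.0286 in each set, the smallest possible for 4 against 4 samples. The fold changes of the sets differed by -0.050, with a 95% interval of -0.47 to 0.37 (adjusted p = 0.927). In the order of the means, *Dbx2*-NSPCs 1 to 4 stood above all, *Dbx2*-NSPCs 5 to 8 and *GFP*-NSPCs 1 to 4 overlapped, and *GFP*-NSPCs 5 to 8 stood below all. *Smad3* was called higher in both sets together with 3.39% of the tested genes.

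**Figure D3:**
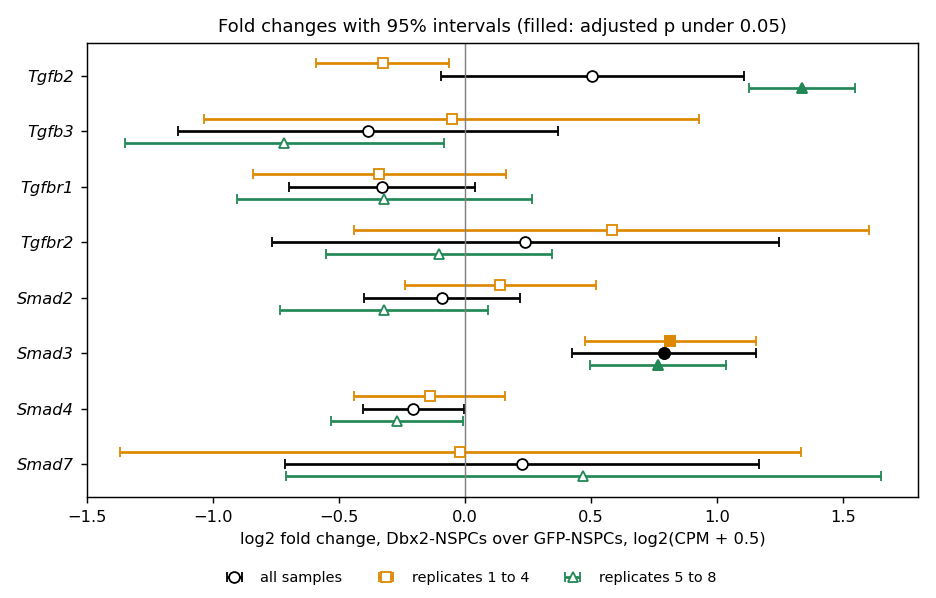
Log2 fold changes of *Dbx2*-NSPCs over *GFP*-NSPCs (horizontal axis, log2(CPM + 0.5)) for the 8 tested members, with 95% intervals from limma, over all samples (circles), samples 1 to 4 (squares) and samples 5 to 8 (triangles). Filled symbols mark an adjusted p under 0.05, which *Smad3* reached in all 3 comparisons and *Tgfb2* in samples 5 to 8.

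The partners of *Smad3* were not called. *Smad2* (chr18:76241580-76310963, plus strand), the other Smad activated by the TGFβ receptor, was at 22.2, 28.9, 26.7 and 18.3 CPM in *GFP*-NSPCs 1 to 4 and at 26.6, 29.4, 35.9 and 34.5 CPM in *GFP*-NSPCs 5 to 8. In *Dbx2*-NSPCs it was at 28.9, 24.6, 27.0 and 24.4 CPM in samples 1 to 4 and at 20.4, 22.1, 37.9 and 23.0 CPM in samples 5 to 8. The groups overlapped in both sets, and the log2 fold change was -0.090 (95% interval -0.40 to 0.22, adjusted p = 0.739). The seventh *Dbx2*-NSPC library stood above the others of its set. Without it, *Smad2* was lower in the *Dbx2*-NSPCs numbered 5 to 8 with an adjusted p of 0.0389, against 0.262 with it.

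*Smad4* (chr18:73639009-73703780, minus strand), the common partner of the activated Smads, was at 58.8, 67.4, 60.6 and 57.6 CPM in *GFP*-NSPCs 1 to 4 and at 69.8, 61.3, 69.0 and 63.7 CPM in *GFP*-NSPCs 5 to 8. In *Dbx2*-NSPCs it was at 52.3, 58.9, 44.9 and 67.8 CPM in samples 1 to 4 and at 51.4, 58.4, 45.1 and 65.5 CPM in samples 5 to 8. It was lower in *Dbx2*-NSPCs at 6 of 8 numbers, with overlap in both sets. For the transgene the log2 fold change was -0.20 (95% interval -0.41 to -0.002, adjusted p = 0.168; exact permutation p = 0.0347, unadjusted). In samples 5 to 8 the adjusted p was 0.131, and it was 0.0465 without the eighth *Dbx2*-NSPC library. The inhibitory *Smad7* (chr18:75367529-75395935, plus strand) was between 0 and 1.95 CPM in *GFP*-NSPCs and between 0 and 2.48 CPM in *Dbx2*-NSPCs, which is a few reads a library. Its interval of -0.71 to 1.17 around a log2 fold change of 0.23 (adjusted p = 0.784) is wide, and changes within it were not detectable at this depth.

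The genes whose levels followed *Smad3* and *Tgfb2* most closely over the 16 samples were looked up among 8650 genes averaging at least 10 CPM, as a description that takes in the transgene and the sets alike. For *Smad3* these were *Gfap*, an intermediate filament gene of astrocytes and adult neural stem cells (Pearson r = 0.949), the cytolinker gene *Plec* (r = 0.946) and *Clu*, which encodes a secreted chaperone (r = 0.941). Mean *Gfap* levels were 10.2 and 65.3 CPM in *GFP*-NSPCs and *Dbx2*-NSPCs 1 to 4, and 1.38 and 19.8 CPM in samples 5 to 8, so that the 4 means stood in the same order as those of *Smad3*. For *Tgfb2* they were the adenosine receptor gene *Adora1* (r = 0.964), *Kcnip3*, which encodes a calcium-binding protein (r = 0.961), and the potassium channel gene *Kcnj10* (r = 0.961). *Adora1* was at 218 and 200.2 CPM in *GFP*-NSPCs and *Dbx2*-NSPCs 1 to 4, and at 76.6 and 217 CPM in samples 5 to 8. As with *Tgfb2*, the *GFP*-NSPCs 5 to 8 had the lowest of the 4 means.

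Outside the core, 99 genes of the pathway were followed in 6 lists, of which 76 were tested. Over all samples 17 of them were called (22.4%, against 15.8% of all genes), 9 higher and 8 lower in *Dbx2*-NSPCs, where 8.03% of all genes were higher and 7.78% lower. Their median log2 fold change was -0.021, against -0.022 over all tested genes. With the replicate block 24 of the 76 were called, with replicate set as a covariate 24, and with edgeR in that design 25. Of all 12533 tested genes, 2723, 3034 and 2938 were called in these fits. In samples 1 to 4, 13 were higher and 1 lower (18.4% called), where 8.19% of all genes were higher and 7.37% lower. In samples 5 to 8, 11 were higher and 11 lower (28.9% called), where 11.5% of all genes were higher and 11.7% lower. In both sets 8 of the 76 were called. Of these 7 were higher in both, where 3.39% of all genes were, among them *Ltbp1*, *Itgb5*, *Dab2*, *Cdkn1a*, *Tsc22d1* and *Sparc*, and *Ski* moved in opposite directions. The fold change differed between the sets for 17 of 76 (22.4%, against 9.44% of all genes), and in 13 of these the fold change was lower in samples 5 to 8. Of all genes, 4.4% had a higher and 5.04% a lower fold change there. The counts by set and the 17 include *Acta2* and *Thbs2*, which passed the filter for testing only through 1 group each. These groups were *Dbx2*-NSPCs 1 to 4 for *Acta2* and *GFP*-NSPCs 5 to 8 for *Thbs2* (13.6 to 28.8 CPM, at most 0.9 CPM elsewhere). Their calls and differences were not independent of the filter, and nothing is drawn from them.

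Among 16 tested genes for the storage and release of latent TGFβ, 2 were higher, 1 was lower and 13 were not called by limma over all samples (18.8% called, against 15.8% of all genes). At an unadjusted p under 0.05 limma had 4 higher and 3 lower, while edgeR called 2 higher and 2 lower and DESeq2 4 higher and 2 lower. *Ltbp1*, which encodes a protein that tethers latent TGFβ to the matrix, rose from 13.3 ± 6.04 to 27.2 ± 4.99 CPM (SD over 8 samples, as for the genes that follow), by 1.10 on the log2 scale (adjusted p = 0.00239). *Itgb5*, a subunit of an integrin that can release active TGFβ, rose from 10.2 ± 4.33 to 24.7 ± 5.59 CPM, a log2 fold change of 1.30 (adjusted p = 0.000301). For both, the groups did not overlap within either set, and 3.3% of all genes were likewise higher without overlap in both sets. However, the call of *Ltbp1* in samples 5 to 8 was lost when any 1 of 6 libraries was left out (adjusted p of 0.0542 to 0.115 over the alternatives that lost it). *Mmp14*, a membrane metalloproteinase, fell over all samples (log2 fold change -2.62, adjusted p = 0.00902), but all of this lay in samples 5 to 8. There it was at 53.7 to 71.0 CPM in *GFP*-NSPCs and at 0.68 to 1.41 CPM, about the level of 3 reads, in *Dbx2*-NSPCs, while samples 1 to 4 had means of 16.6 ± 4.31 and 16.8 ± 2.92 CPM. The difference of the fold changes was -5.30 (adjusted p = 2.38e-11). The integrin subunit gene *Itgb1*, which drew the most reads of this list, was at 458 ± 27.6 and 467 ± 56.4 CPM and was not called.

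Of 14 co-receptors and receptor regulators, 1 was higher, 1 was lower and 12 were not called (14.3%, against 15.8%), with the same counts by edgeR and DESeq2. *Dab2*, an endocytic adaptor that binds the receptors and Smads, rose from 1.31 ± 0.82 to 6.20 ± 1.64 CPM (log2 fold change 1.97, adjusted p = 5.48e-05), without overlap between the groups, as for 3.41% of all genes. The *GFP*-NSPC level was near that of 3 reads. *Usp15*, a deubiquitinase that acts on the type I receptor, fell from 53.2 ± 8.44 to 40.1 ± 5.51 CPM (log2 fold change -0.40, adjusted p = 0.0246). *Fkbp1a*, a binding protein of the type I receptor with the most reads of this list, was at 751.5 ± 152 and 807 ± 70.9 CPM and was not called over all samples.

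Of 16 other Smads, Smad partners and co-repressors, 0 were higher, 2 were lower and 14 were not called by limma over all samples (12.5%, against 15.8%). At an unadjusted p under 0.05 limma had 0 higher and 4 lower, while edgeR called 0 higher and 1 lower and DESeq2 0 higher and 3 lower. These were *Smad5*, a Smad of the bone morphogenetic protein branch (245.6 ± 23.4 to 197 ± 15.98 CPM, log2 fold change -0.31, adjusted p = 0.00644), and *Zeb2*, a Smad-binding repressor (123 ± 24.1 to 88.2 ± 26.5 CPM, log2 fold change -0.50, adjusted p = 0.0331). *Zeb1*, with the most reads of this list, was at 869 ± 106 and 841 ± 154 CPM and was not called. *Ski*, a co-repressor of Smad3 named here after its values were seen, rose in samples 1 to 4 from 57.0 ± 12.9 to 102.8 ± 9.75 CPM (adjusted p = 0.00236). In samples 5 to 8 it fell from 79.6 ± 9.13 to 45.3 ± 5.01 CPM (adjusted p = 0.000161). The groups did not overlap in either set, as for 19.6% of all genes in samples 1 to 4 and 24.8% in samples 5 to 8. The difference of the log2 fold changes was -1.67 (adjusted p = 1.13e-06).

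Of 23 known target genes of the pathway 15 were tested, and 5 were higher, 0 lower and 10 not called by limma over all samples (33.3%, against 15.8% of all genes). Their median log2 fold change was 0.49, against -0.022 over all genes. It was 0.59 in samples 1 to 4 (12 above 0 and 3 below), against -0.0375 over all genes. In samples 5 to 8 it was 0.14 (8 above 0 and 7 below), against -0.0117 over all genes. No test of the list was made. Among those 15, limma had 6 higher and 1 lower at an unadjusted p under 0.05, and edgeR and DESeq2 each called 6 higher and 0 lower. *Sparc*, a secreted matrix glycoprotein, rose from 351 ± 77.2 to 1026 ± 366 CPM (log2 fold change 1.49, adjusted p = 2.42e-05), and *Tsc22d1*, a leucine zipper gene, rose from 207 ± 26.4 to 314 ± 31.0 CPM (0.60, adjusted p = 4.87e-05). For both, the groups did not overlap over all samples, as for 3.41% of all genes. *Cdkn1a*, the cell cycle inhibitor p21 and also a target of p53, rose from 1193 ± 641 to 2238 ± 410.3 CPM (1.14, adjusted p = 0.0178), and the transcriptional repressor gene *Bhlhe40* rose from 26.2 ± 16.9 to 50.2 ± 13.7 CPM (1.15, adjusted p = 0.0189). *Bhlhe40* was called in samples 5 to 8 (log2 fold change 1.71, adjusted p = 2.94e-05) but not in samples 1 to 4 (0.59, adjusted p = 0.0728). In samples 1 to 4 the calls of this list were 7 higher and 0 lower by limma, edgeR and DESeq2 alike (8 higher and 0 lower at an unadjusted limma p under 0.05), where 8.19% of all genes were higher and 7.37% lower. In samples 5 to 8 they were 5 higher and 1 lower by limma and DESeq2 and 6 higher and 1 lower by edgeR (7 higher and 3 lower at an unadjusted limma p under 0.05), where 11.5% of all genes were higher and 11.7% lower. The fold change differed between the sets for 6 of the 15 by limma (40%, against 9.44% of all genes), and 5 of these were lower in samples 5 to 8, as were 5 of 6 by edgeR and 4 of 5 by DESeq2. *Acta2* is among these 6 and among the 7 called in samples 1 to 4. It passed the filter for testing only through the *Dbx2*-NSPCs 1 to 4 (1.08 to 5.14 CPM, at most 0.41 CPM elsewhere). Its call and its difference were therefore not independent of the filter, and nothing is drawn from them. The list shares *Acta2*, *Col1a1* and *Dcn* with the 7 markers of pericytes and fibroblasts, whose summed level was 0.935 ± 0.717 CPM in *GFP*-NSPCs against 2.98 ± 2.21 CPM in *Dbx2*-NSPCs, and the part of such cells in the target calls was not tested.

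In the activin arm, whose receptors also act on Smad2 and Smad3, 1 gene was higher, 2 were lower and 3 were not called over all samples (50% of 6, against 15.8% of all genes). In samples 1 to 4, 0 of 6 were called by limma, edgeR or DESeq2, against 15.6% of all genes by limma, and 2 were lower at an unadjusted limma p under 0.05. In samples 5 to 8, limma, edgeR and DESeq2 each called 1 higher and 1 lower (33.3%, against 23.2% of all genes by limma). At an unadjusted limma p under 0.05, 1 was higher and 2 were lower there. *Inhbb*, which encodes a subunit of activins and inhibins, rose from 12.8 ± 6.73 to 24.0 ± 5.78 CPM (log2 fold change 1.01, adjusted p = 0.0131). It was called in samples 5 to 8 (log2 fold change 1.69, adjusted p = 0.000323) but not in samples 1 to 4 (0.33, adjusted p = 0.393). The type II receptor genes *Acvr2b* (16.04 ± 3.64 to 9.12 ± 2.48 CPM, log2 fold change -0.79, adjusted p = 0.00724) and *Acvr2a* (12.8 ± 2.67 to 8.11 ± 2.71 CPM, log2 fold change -0.67, adjusted p = 0.0271) fell. The ligand gene *Gdf11* was at 54.3 ± 5.80 and 53.2 ± 16.4 CPM. Of 9 genes of the branch that does not use Smads, 0 were higher, 2 were lower and 7 were not called by limma (22.2%, against 15.8%). The counts were the same at an unadjusted p under 0.05 and with DESeq2, and edgeR called 0 higher and 1 lower. *Tab2*, an adaptor of the kinase TAK1, had a log2 fold change of -0.40 (adjusted p = 0.0444), and the small GTPase gene *Rhoa* one of -0.26 (adjusted p = 0.0308). For *Tab2* it was -0.64 in samples 5 to 8 (adjusted p = 0.000154) and -0.15 in samples 1 to 4 (adjusted p = 0.304). The calls of *Tab2*, *Rhoa* and *Acvr2a*, like those of *Zeb2* and *Usp15*, were close to the threshold and were lost when some single libraries were left out, with an adjusted p of 0.0893 at most. *Rhoa* was also not called with median-of-ratios scaling (adjusted p = 0.052), TMM scaling (0.0506) or edgeR (0.0564), *Zeb2* not with edgeR (0.0671), and *Tab2* not without a filter on low values (0.0597) or with median-of-ratios scaling (0.0515). *Rock1*, a kinase downstream of RhoA with the most reads of this list, was at 374 ± 22.8 and 349 ± 25.0 CPM and was not called.

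**Figure D4:**
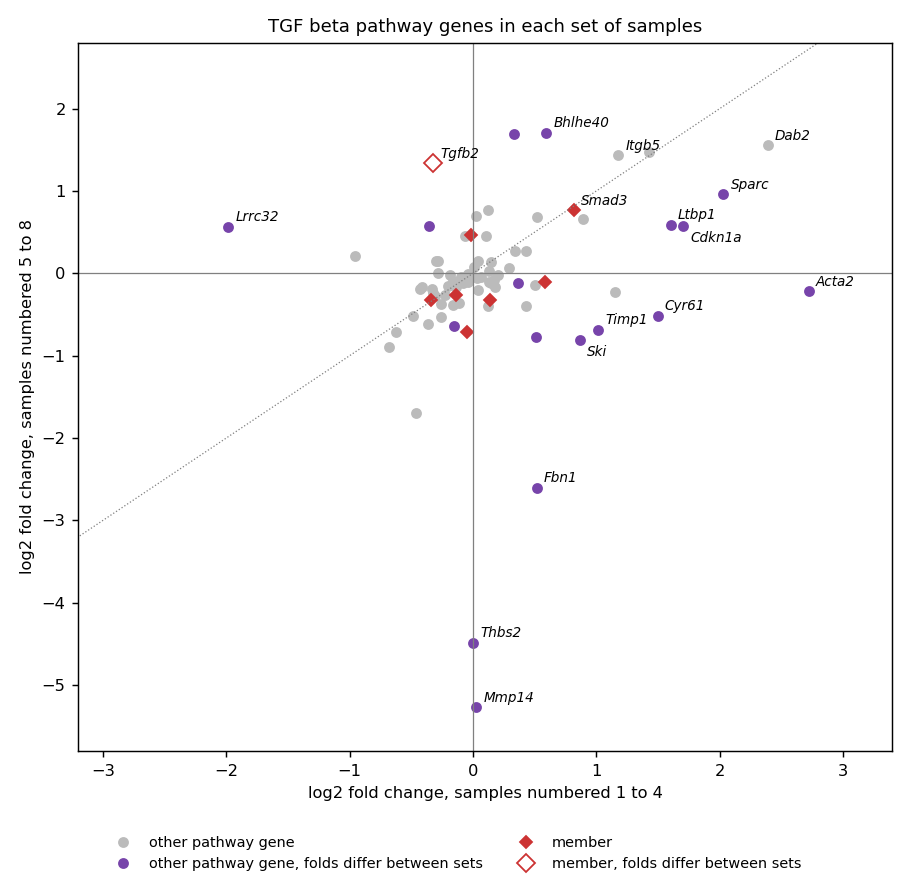
Log2 fold change of *Dbx2*-NSPCs over *GFP*-NSPCs in samples 1 to 4 (horizontal axis) and in samples 5 to 8 (vertical axis) for the 8 tested members (red diamonds) and the 76 other tested pathway genes (circles), with the line of equal change dotted. Purple circles and the open diamond (*Tgfb2*) mark genes whose fold changes differed between the sets at an adjusted p under 0.05; *Smad3* lay near the dotted line, and *Ski* lay below the horizontal line and to the right of the vertical line.

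The labelled cell type was checked against markers. Of 12 markers of neural stem/progenitor cells, 11 were above the level of 3 reads in at least 8 libraries, with *Vim* drawing the most reads (2414 ± 388 and 2491 ± 495 CPM), and *Prom1* reached no more than 0.65 CPM. The summed level of these markers was 7081 to 8688 CPM in *GFP*-NSPCs and 5973 to 7462 CPM in *Dbx2*-NSPCs, with means of 7943 ± 669 and 6621 ± 531 CPM. Among them *Gfap* rose (log2 fold change 3.31, adjusted p = 0.000354), while the glutamate transporter gene *Slc1a3* (-1.03, adjusted p = 0.0259), *Fabp7* (-0.72, adjusted p = 0.0149) and *Egfr* (-0.45, adjusted p = 0.00433) fell. The part of this shift in the levels of *Smad3* and *Tgfb2* was not tested.

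Microglia, a source of *Tgfb1* in the brain, and vascular cells, which respond to it, left little signal. Of 10 markers of microglia and macrophages 0 were above the level of 3 reads in at least 8 libraries, *Aif1*, *Tmem119* and *Tyrobp* were at 0 in every library, and the 10 together summed to no more than 2.89 CPM. The 7 markers of pericytes and fibroblasts summed to 0.4 to 1.3 CPM in *GFP*-NSPCs and 2.52 to 6.1 CPM in *Dbx2*-NSPCs of samples 1 to 4, where the groups did not overlap. In samples 5 to 8 they summed to 0 to 2.05 CPM and 0.45 to 3.73 CPM, where the groups overlapped. *Acta2* drew the most reads, with means of 0 and 3.19 CPM in *GFP*-NSPCs and *Dbx2*-NSPCs 1 to 4. Over all samples the means of *Rgs5*, *Col1a1* and *Col1a2* were also higher in *Dbx2*-NSPCs, and those of *Pdgfrb*, *Lum* and *Dcn* were lower, each under 1 CPM. Of the 7 markers, 0 were above the level of 3 reads in at least 8 libraries. Of 7 endothelial markers, *Cldn5* and *Cdh5* were at 0 in every library, whereas *Flt1* rose from 1.18 ± 0.87 to 6.84 ± 2.66 CPM (log2 fold change 2.29, adjusted p = 0.000347), and the list summed to 1.34 to 12.6 CPM in *GFP*-NSPCs and 4.81 to 19.9 CPM in *Dbx2*-NSPCs. Markers of the neuroblast and neuron lineage summed to 857 to 1295 CPM in *GFP*-NSPCs and 705.0 to 909 CPM in *Dbx2*-NSPCs, nearly all from *Map2*, which fell (log2 fold change -0.47, adjusted p = 0.00557), with *Stmn2* and *Dlx5* at 0 in every library. Markers of the oligodendrocyte lineage summed to 63.3 to 147 CPM in *GFP*-NSPCs and 112 to 223 CPM in *Dbx2*-NSPCs, mostly from *Cnp*, which rose (0.81, adjusted p = 0.000886), with *Mog* at 0 in every library. Ependymal markers summed to 10.99 to 26.7 CPM and 17.6 to 41.1 CPM, with *Foxj1* drawing the most reads and *Tmem212* at 0 in every library, and of these *Ccdc153* rose from 1.43 ± 1.16 to 5.41 ± 2.32 CPM (log2 fold change 1.75, adjusted p = 0.0102). The part of these markers in the results above was not tested.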

How the data were processed

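QuantSeq 3′ libraries had been prepared, each from 100 ng of RNA. The authors used bbduk, STAR 2.5.0a and edgeR 3.36, per the submitters' notes and the study's methods, with build GRCm38, and deposited 1 table of CPM. Each of the 16 columns of CPM summed to between 999484.7 and 999613.8, 0 columns were left unused, and 100% of the values above 0 were whole reads within 0.05 read. Genes above 1 CPM in at least 4 samples were tested on log2(CPM + 0.5) with limma 3.58.1 (eBayes with trend, R 4.3.3), 2-sided. The study used cell line as a covariate, which the labels do not give, so none was fitted. Permutation tests enumerated all splits of single genes. The scripts were tested on simulated data. Alternatives were other pseudocounts (0.1 and 2), filters and scalings, a replicate block, replicate set as a covariate, left-out libraries, and edgeR 4.0.16 and DESeq2 1.42.0 on recovered reads. edgeR with the replicate set as a covariate was chosen after the data had been seen.

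Deviations of same-numbered samples from their group means correlated at r of 0.152 to 0.303 over the 8 numbers. From the means of group and set, r was -0.007 to 0.119, and 4 of 8 numbers correlated best, within their set, with their own. The reported fits used no pairing, and the replicate block was an alternative.

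The members and lists were chosen with earlier results of these data known. Beside the members, the text names in each list the called genes with the largest change, at most 4 each way, averaging 3 CPM or more in a group, and the gene with the most reads. *Ski* and the genes in the closing section outside this rule were chosen after their values were seen. A called gene of the target list is not reported here by name. Positions came from GENCODE M21 and promoters from RefSeq, which held 5 of the 9 members.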

Additional observations from a re-analysis of the deposited data

Results flagged for a closer look

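The log2 fold change differed between the samples numbered 5 to 8 and those numbered 1 to 4, by the limma interaction test, for 1 of 8 members and 17 of 76 other pathway genes, against 9.44% of all tested genes. *Tgfb2* was the member among them, with a difference of 1.66, and *Ski* was the gene called in opposite directions in the sets. The 17 include *Acta2* and *Thbs2*, whose differences were not independent of the filter for testing, as given above. In these differences a positive value means a larger fold change in samples 5 to 8. The other positive ones were 2.55 for *Lrrc32*, a gene for a cell surface anchor of latent TGFβ, 1.36 for *Inhbb*, 1.11 for *Bhlhe40* and 0.93 for *Tgfbrap1*. Among the genes of latency and activation, the difference was -5.30 for *Mmp14*, -4.49 for *Thbs2*, -3.12 for *Fbn1* and -1.01 for *Ltbp1*. *Fbn1*, the gene of fibrillin-1, was at 15.99 ± 1.45 and 2.33 ± 0.98 CPM in *GFP*-NSPCs and *Dbx2*-NSPCs 5 to 8, against 5.92 ± 1.18 and 8.70 ± 1.78 CPM in samples 1 to 4 (SD, n = 4 each). *Thbs2*, which encodes a matrix glycoprotein, was at 20.5 ± 6.29 CPM in *GFP*-NSPCs 5 to 8, at 0.47 ± 0.40 CPM in the *Dbx2*-NSPCs and at 0.08 CPM in both groups of samples 1 to 4, so its fitted value depends on the pseudocount (-5.55 to -3.16 over the alternatives run).

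Among the target genes the difference was -2.94 for *Acta2*, -2.01 for *Cyr61*, -1.70 for *Timp1*, -1.13 for *Cdkn1a* and -1.07 for *Sparc*. *Acta2* was at 0 in all *GFP*-NSPCs 1 to 4, and *Timp1* was at or under the level of 3 reads in all libraries 5 to 8, so no fold is read from them there. The fitted differences ran from -7.05 to -1.37 for *Acta2* and from -4.56 to -1.18 for *Timp1* over the alternatives run, and neither is read as a size. It was -1.67 for *Ski*, -1.29 for *Shc1*, -0.49 for *Tab2* and -0.47 for *Fkbp1a*. The difference was no longer called when leaving out some single libraries for *Ltbp1*, *Tgfbrap1*, *Shc1*, *Timp1*, *Cdkn1a*, *Fkbp1a* and *Tab2*. By method, it was lost for *Thbs2* with edgeR (adjusted p = 0.213), for *Cdkn1a* with DESeq2 (0.165), for *Timp1* with a pseudocount of 0.1 (0.0716) or a filter at a mean of 10 CPM (0.0555), and for *Tgfbrap1* with edgeR (0.0502) or a pseudocount of 0.1 (0.0513). Without a filter on low values it was lost for *Cdkn1a* (0.0543), *Shc1* (0.0544), *Ltbp1* (0.0576), *Tgfbrap1* (0.0669) and *Timp1* (0.0716). With the replicate block the adjusted p was 0.0503 for *Ltbp1* and 0.0674 for *Tgfbrap1*.

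A library stood apart from the rest of its group by Dixon's criterion in 6 of 60 groups checked, where chance gives about 1 in 20. These were *Smad2* in the seventh *Dbx2*-NSPC library (37.9 CPM), *Tgfb3* in the fourth (0.72 CPM) and *Dbx2* in the first (232 CPM). The other 3 concerned *Tgfb1* within 3 reads, at 1.66 CPM in the fifth *GFP*-NSPC library, 0.65 CPM in the third and 0.36 CPM in the fourth *Dbx2*-NSPC library.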

How the results depend on the processing

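*Smad3* was called, higher, over all samples and in each set, and *Tgfb2* in samples 5 to 8 and in the difference between sets, under every alternative run. The adjusted p of *Smad3* over all samples was 3.62e-06 to 0.0100. With the replicate block 2723 genes were called over all samples (main 1982), and the block changed the call of no member. With replicate set as a covariate the count was 3034, and with edgeR in that design 2938. In samples 1 to 4 it was 1299 without a filter on low values (main 1950), and 1286 to 2209 when leaving out 1 library, the lowest without the third *GFP*-NSPC library. Of the members' alternatives, 651 of 676 kept direction and call, 2 gained a call (*Smad2* and *Smad4*, given above) and 23 turned an uncalled direction. When leaving out 1 library, log2 fold changes crossed 0 over all samples for *Tgfbr2* (-0.043 without the second *GFP*-NSPC library, to 0.51) and *Itgb1* (-0.0104 to 0.047). They crossed 0 in samples 1 to 4 for *Tgfb3* (-0.32 to 0.30) and *Smad7* (-0.49 to 0.45), and in the difference between sets for *Tgfbr1* (-0.24 to 0.19) and *Smad3* (-0.19 to 0.053). *Smad7* in samples 1 to 4 was also at 0.0074 with median-of-ratios scaling, 0.0055 with TMM scaling and 0.0149 with DESeq2, and the *Tgfbr1* difference at -0.10 with edgeR and with DESeq2. Of the other named genes' alternatives, 115 of 1409 lost a call, among them those of *Tab2* (without *GFP*-NSPC libraries 5 to 8 or *Dbx2*-NSPC libraries 1 to 6 or 8, each alone), *Zeb2* (*GFP* 2 to 5, *Dbx2* 1 or 5 to 8), *Rhoa* (*GFP* 3 or 4, *Dbx2* 4, 5, 6 or 8), *Acvr2a* (*GFP* 2, 6 or 7, *Dbx2* 1 or 7) and *Usp15* (*GFP* 7, *Dbx2* 7) over all samples, whose adjusted p was then 0.0893 at most, and *Ltbp1* in samples 5 to 8 (*GFP* 5, 7 or 8, *Dbx2* 5, 6 or 7). The causes of these changes were not tested.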
